A study of Homo sapiens with 4 samples.

Results

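The genes described here repair broken and crosslinked DNA by homologous recombination and the Fanconi anemia pathway, or signal that such damage is present. They were measured in SCC-9 cells, an established human line from a tongue squamous cell carcinoma. One group was transfected with mimics of the microRNA miR-585-5p at 30 nM and the other with the control small RNA miR-NC, and total RNA was taken 36 hours after transfection. RNA of each group was hybridised to 2 PrimeView arrays, 4 in all, and the comparison asks which transcripts differ when the microRNA is supplied in excess. All groups are of this 1 cell line. Members were chosen by name, as 38 genes of the pathway, but with earlier results of these data known. Of these, 34 genes had a probe set annotated to that gene alone, out of 18132 genes so named on the array, and each is represented by its brightest probe set. BRCA2, RBBP8, FANCA and FANCD2 were not analysed here. A further 2 genes, BRIP1 and DNA2, were too dim to be tested, so 32 genes entered the test.

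In homologous recombination, nucleases trim the ends of a double-strand break, the exposed single strand is coated, BRCA2, PALB2 and BRCA1 prepare it for pairing, and the resulting filament searches the sister chromatid for a matching sequence. The sister exists only after replication, so the pathway acts in the S and G2 phases, and many of its genes are transcribed most in dividing cells. The Fanconi pathway deals with crosslinks between the DNA strands: a core complex attaches ubiquitin to FANCI and FANCD2 at a stalled fork, which opens the way to incision and then to recombination. Squamous carcinomas are prominent among the tumours of people born with Fanconi anemia, the mouth being a common site.

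The mature strand supplied by the mimic and the other strand of the same hairpin are shown because the mimic is the only difference between the groups that the labels give. Both are RefSeq sequences on GRCh38.p14, from the minus strand of chromosome 5 (chr5:169263649-169263670 and chr5:169263616-169263634). Capitals mark the seed, bases 2 to 8, with which a microRNA pairs to its targets.
hsa-miR-585-5p: cUAGCACAcagauacgcccaga
hsa-miR-585-3p: uGGGCGUAucuguaugcua
The seeds differ between the strands. No probe set measured the microRNA, and transcripts were not searched for seed matches here.

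Most genes of the group that changed were higher with the mimic. Of the 32 tested, 18 rose, 4 fell and 10 did not pass (limma adjusted p under 0.05 over all 14123 genes tested). Over all genes tested 28.1% were higher and 26.9% lower, against 56.2% and 12.5% of these genes. Counts by role below are to be read against the same shares of all genes. Rises of at least 2-fold were seen in 9 of the 32, or 28.1%, against 4.76% of all genes, and no fall reached that size. The median log2 change was 0.37, and that of all genes was -0.06. Genes ran from -0.84 (ATRIP) to 1.50 (BRCA1), apart from RAD51AP1, whose brightest probe set gives only a bound. Both mimic arrays lay outside the range of both control arrays for 28 of the 32, or 87.5%, but this was also so for 79.4% of all genes tested. Members of the group were named with earlier results of these data known, and no test of the group as a whole was made.

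**Figure D1:**
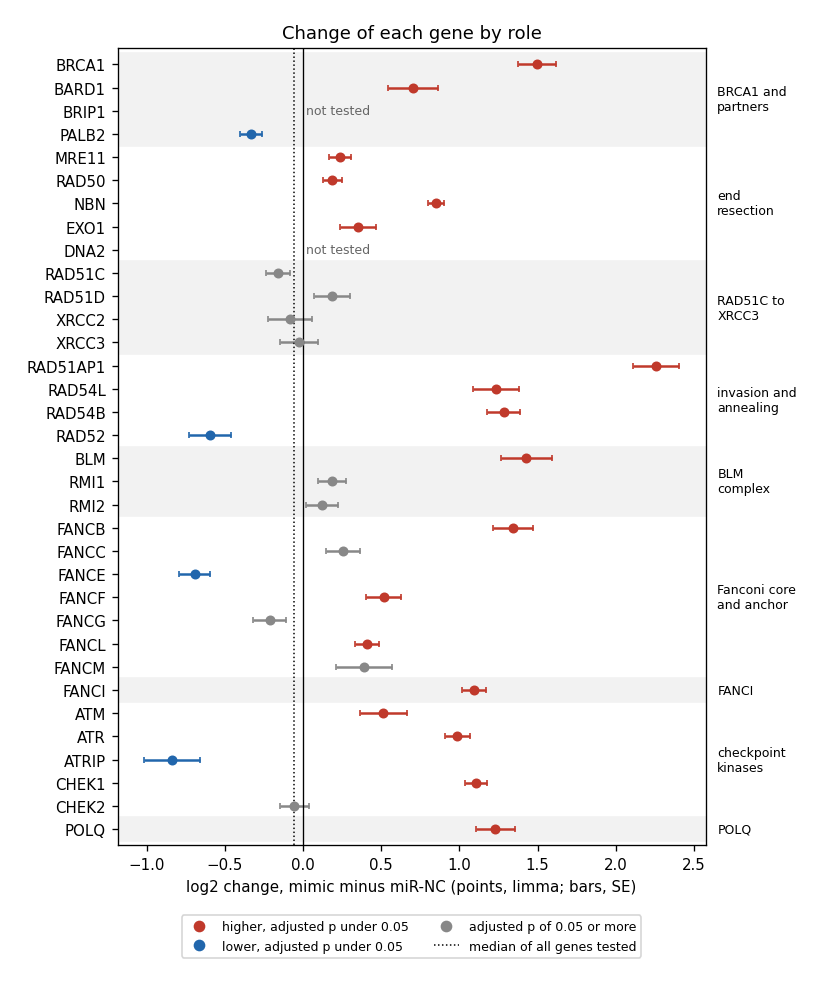
The log2 change of each gene (mimic minus miR-NC, points) with its SE (bars), from limma on 2 arrays per group, arranged by role; the dotted line is the median of all genes tested, -0.06. Red points passed as higher (18 genes), blue as lower (4) and grey did not pass (10); the point of RAD51AP1 is a fitted value, its controls being at background.

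The arrays carry 49395 probe sets and had medians of 30.6 to 31.3 in intensity. Arrays of 1 group correlated at 0.997 to 0.998 over the tested genes and arrays of different groups at 0.963 to 0.969, which describes the libraries and is no test. The epithelial markers KRT5, KRT14, SFN, EPCAM and CDH1 were above background on all 4 arrays, with a summed intensity of 19075 to 19766 in the mimic group and 17511 to 18046 in the control group. They did not move together: KRT14 (0.97), EPCAM (0.59) and KRT5 (0.24) rose, and CDH1 (-1.26) and SFN (-0.42) fell. Of 10 markers found for leukocytes, endothelium and fibroblasts, PTPRC, CDH5, PDGFRA, DCN and COL3A1 were at background on every array. CD14, PECAM1, VWF and PDGFRB were above it on all 4 arrays, and CD3E was above it on the 2 control arrays only. The 3 leukocyte markers summed to 104 and 120.1 with the mimic and 76.9 and 82.2 with miR-NC, of which CD14, which rose by 0.68, made up most, and their part in the results was not tested. The sums were 67.5 and 70.7 against 73.8 and 77.8 for the 3 endothelial markers, and 64.8 and 69.1 against 66.1 and 69.7 for the 4 of fibroblasts. Background is taken from 20 control probe sets without a human target, of which the brightest read 14.2 to 16.8 on an array. Genes that mark S phase and mitosis moved with the comparison: 11 of 12 were higher, or 91.7%, against 28.1% of all genes tested. Their median log2 change was 1.74, against -0.06 for all genes. The highest were cyclin A2 (CCNA2) at 3.09, TOP2A at 2.86 and CCNB1 at 2.12. The part of cell cycle position in the changes below was not tested. In bulk RNA, more cells in a phase and more RNA per cell cannot be told apart. Whether the 2 arrays of a group represent separate cultures is not in the labels, so the p-values cover just the spread seen among these arrays, which may be technical.

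Every value is relative to the array as a whole. The mean of the poly(A) spikes, RNAs of bacterial genes put into each sample ahead of labelling, was 0.35 higher (log2) in the mimic group. By spike it was 0.37 for dap, 0.42 for lys, 0.48 for phe and -0.0066 for thr, so that 1 of the 4 RNAs did not share the shift of the mean. Scaling to the mean lowers every change by 0.35. On that scale 11 of the 32 genes were higher and 9 lower, in place of 18 and 4, while over all genes 1613 were higher and 8198 lower, in place of 3966 and 3802. The median of the 32 genes was then 0.024 and that of all genes -0.40. The same amount comes off every gene, so the distance between the medians cannot change and is no check. On it, 7 risen genes lost their call: BARD1 (0.36), EXO1 (0.0042), FANCF (0.17), FANCL (0.06) and ATM (0.17), and MRE11 (-0.11) and RAD50 (-0.16), whose sign also turned. RAD51C (-0.50), XRCC2 (-0.43), XRCC3 (-0.37), FANCG (-0.56) and CHEK2 (-0.40), which did not pass on the deposited scale, fell.

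**Figure D2:**
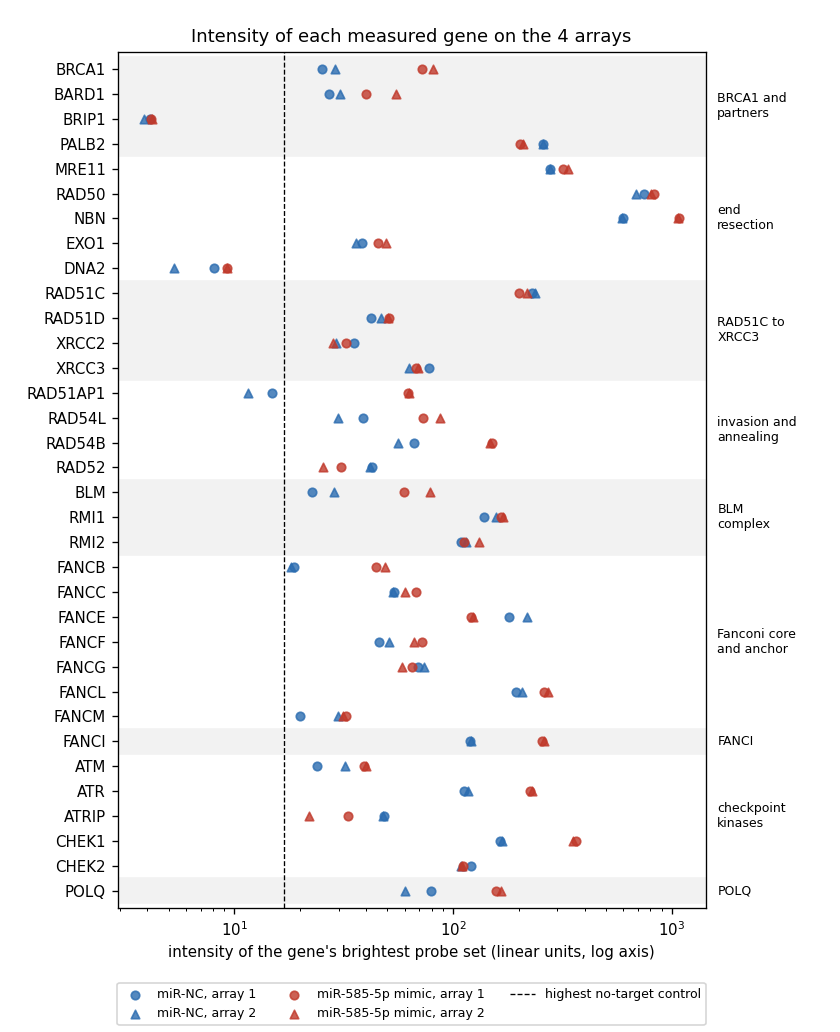
Intensity of each gene's brightest probe set on the 2 mimic arrays (red) and the 2 miR-NC arrays (blue), on a log axis, arranged by role; the dashed line is the brightest control probe set without a human target, 16.8. BRIP1 and DNA2 lie below the line on all arrays, and the controls of RAD51AP1 lie below it at 14.9 and 11.6.

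BRCA1 and its partner BARD1 rose and PALB2 fell. BRCA1, a ubiquitin ligase and scaffold that promotes resection and filament assembly, read 72.2 and 80.6 with the mimic and 25.2 and 29.0 with miR-NC. Both mimic arrays stood well above both controls, and the rise was 1.50 ± 0.12 (log2 change ± SE, 2 arrays per group, limma adjusted p = 2.48e-06), more than 98.4% of the genes tested. BARD1, with which BRCA1 forms its active heterodimer, read 39.9 and 55.0 against 27.2 and 30.4. The groups did not overlap, but the mimic arrays differed from each other by more than the controls did, and the rise was 0.70 ± 0.16 (limma adjusted p = 0.00319). Without mimic replicate 2 BARD1 was at 0.47 and did not pass (limma adjusted p = 0.0727). PALB2, the bridge between BRCA1 and BRCA2, went the other way, with 201 and 209 on the mimic arrays against 259 and 258, a fall of 0.33 ± 0.07 (limma adjusted p = 0.00256). BRIP1, a helicase that binds BRCA1, was at background, with 4.15 and 4.19 against 4.12 and 3.87, so that its level could not be compared. For BRCA1, 3 other probe sets were bright enough to be tested and all 3 were called higher. The rises were 1.62 and 0.83 for 2 of them. The remaining one had both controls at background, so no change is given for it. The mean of all 5 BRCA1 probe sets, which includes dim ones, gave 0.89, and leaving out probe sets marked as cross-hybridizing gave 0.83.

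End resection, which converts a break into single-stranded DNA, is begun by the MRE11-RAD50-NBN complex and extended by EXO1 or by DNA2 with BLM. The clearest rise was that of NBN, the subunit that brings the ATM kinase to breaks. NBN read 1079 and 1069.6 with the mimic and 597 and 595 with miR-NC, so that arrays of a group were nearly equal and the groups far apart. It rose by 0.85 ± 0.05 (log2, SE, n = 2 per group, limma adjusted p = 3.16e-07), and its 4 other probe sets rose by 0.54 to 0.65.

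The other resection genes changed little. The nuclease MRE11 read 317 and 334 against 276 and 276, a rise of 0.24 ± 0.07 (limma adjusted p = 0.0129). RAD50, the coiled-coil ATPase that tethers the ends, read 831 and 803 against 748 and 689, a rise of 0.19 ± 0.06 (limma adjusted p = 0.0224). The 5′ to 3′ exonuclease EXO1 read 45.4 and 49.5 against 38.3 and 36.1, a rise of 0.35 ± 0.12 (limma adjusted p = 0.0260). None of these 3 rises passed without mimic replicate 2 (MRE11 0.20, RAD50 0.21, EXO1 0.29), and RAD50 and EXO1 passed neither without mimic replicate 1 (0.16 and 0.41) nor without control replicate 2 (0.13 and 0.31). Their probe sets also split: another MRE11 probe set fell by 0.84 ± 0.14 and another RAD50 probe set fell by 0.29 ± 0.10, and with the mean of all probe sets MRE11 was at -0.25 and passed as lower, while RAD50 was at 0.03. The nuclease-helicase DNA2 was below background on all arrays, at 9.26 and 9.24 in the mimic group and 8.07 and 5.30 in the control group.

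RAD51C, RAD51D, XRCC2 and XRCC3 assist the growth of the filament, RAD51D and XRCC2 in one complex and RAD51C in that complex and in another with XRCC3. None of the 4 passed on its brightest probe set: RAD51C was at -0.16 ± 0.08 (log2, SE), RAD51D at 0.18 ± 0.11, XRCC2 at -0.08 ± 0.14 and XRCC3 at -0.03 ± 0.12, with limma adjusted p-values of 0.106 to 0.871. The arrays of the groups overlapped for XRCC2 and XRCC3.

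RAD51C was the gene whose value rested most on the choice of probe set, and it is singled out after its values were seen. The probe set with the highest mean log2 signal read 201 and 218 with the mimic and 231 and 236 with miR-NC. Another read 363 and 380.3 against 108 and 124, and yet another 329 and 351 against 104 and 109. These 2 probe sets rose by 1.68 ± 0.09 and 1.67 ± 0.08 (limma adjusted p = 1.87e-08 and 1.23e-08 over all probe sets). Had brightness been judged by the mean intensity instead of the mean log2, a setting chosen after seeing the data, RAD51C would be at 1.68 (limma adjusted p = 9.17e-08), and 19 genes of the group would be higher. With the mean of its 4 probe sets RAD51C was at 0.77 and passed. Which transcripts each probe set detects was not examined here.

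Among the proteins of strand invasion and annealing 3 rose and 1 fell, and the largest change of the whole group was here. RAD51AP1, which helps the filament invade the matching duplex, read 62.3 and 63.2 with the mimic and 14.9 and 11.6 with miR-NC. The mimic arrays were nearly equal, and the controls were not above background. In their place, the brightest control without a human target on each control array was taken. On that basis the RAD51AP1 signal of this probe set was at least 4.07-fold higher with the mimic (n = 2 per group). The bound itself was not tested. The call rests on the fit to the deposited values, controls at background included (limma adjusted p = 4.30e-07). Another RAD51AP1 probe set, above background on 1 of the 2 control arrays, read 45.1 and 53.2 against 12.7 and 20.2, a smaller rise of 1.61 ± 0.19 (limma adjusted p = 1.97e-05 over all probe sets). The remaining tested one had both controls at background, so no change is given for it.

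The translocases RAD54B and RAD54L, which drive strand invasion, rose together. RAD54B read 151 and 147 against 66.6 and 56.3, a rise of 1.28 ± 0.11 (log2, SE, limma adjusted p = 2.35e-06). RAD54L read 72.9 and 86.8 against 38.6 and 29.6, a rise of 1.23 ± 0.15 (limma adjusted p = 3.49e-05). For both genes the lowest mimic array was far above the highest control. RAD52, which anneals complementary single strands, fell: it read 30.7 and 25.5 against 42.8 and 41.8, a change of -0.59 ± 0.13 (limma adjusted p = 0.00287). Without mimic replicate 2 RAD52 was at -0.46 and did not pass (limma adjusted p = 0.0584), and with the mean of its 12 probe sets it was at -0.35. All 6 other tested RAD52 probe sets had a lower mean with the mimic, and 2 of them passed. Of those 2, 1 was above background on only 1 array, a control array.

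BLM, the helicase mutated in Bloom syndrome, unwinds joined DNA molecules together with RMI1 and RMI2. BLM read 59.5 and 78.7 with the mimic and 22.7 and 28.5 with miR-NC, and rose by 1.43 ± 0.16 (log2, SE, limma adjusted p = 2.36e-05). Its partners did not pass: RMI1 was at 0.19 ± 0.09, with 166 and 170.2 against 138 and 158, and RMI2 was at 0.12 ± 0.10, with overlapping groups. RMI1 passed without control replicate 2 (0.28, limma adjusted p = 0.0186). POLQ, the polymerase of a back-up pathway that joins resected ends at short matching stretches, read 158 and 166 against 79.2 and 60.2 and rose by 1.23 ± 0.13 (limma adjusted p = 1.12e-05). The mean of both POLQ probe sets, 1 of them at background, was 0.54.

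The Fanconi core complex did not move as 1 unit. Of its 7 measured genes, counting the anchor FANCM, 3 rose (42.9%), 1 fell (14.3%) and 3 did not pass. The shares of all genes tested were 28.1% higher and 26.9% lower. FANCB, a structural subunit encoded on the X chromosome, read 44.2 and 49.1 with the mimic and 18.6 and 18.1 with miR-NC, where it was just above background. It rose by 1.34 ± 0.13 (log2, SE, limma adjusted p = 6.55e-06). FANCL, the ubiquitin ligase subunit, read 259.9 and 272 against 195 and 206, a rise of 0.41 ± 0.07 (limma adjusted p = 7.95e-04). The adaptor FANCF read 71.9 and 66.5 against 45.7 and 51.2, a rise of 0.52 ± 0.11 (limma adjusted p = 0.00259). FANCE, which links the core to FANCD2, fell. It read 121 and 124 against 180.0 and 217, a change of -0.69 ± 0.10 (limma adjusted p = 1.44e-04), or -0.42 without cross-hybridizing probe sets.

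FANCL and FANCF lost their calls under some other settings, while FANCE and FANCB kept theirs wherever they could be fitted. FANCB has 1 probe set, so settings that change the probe set could not move it. Neither of the other FANCL probe sets passed (-0.25 and 0.11), and the mean of its 3 was 0.09. Another FANCF probe set was at 0.11 and did not pass, and the last passed as higher with both controls at background. A further FANCE probe set was at -0.35 and did not pass. FANCF did not pass without mimic replicate 1 (0.46, limma adjusted p = 0.0551). For FANCC (0.25), FANCG (-0.21) and FANCM (0.39) the groups did not overlap and the limma adjusted p was 0.0707 to 0.114. FANCM was uneven among the controls, at 19.9 and 29.7, against 32.3 and 31.4 on the mimic arrays, and passed without control replicate 2 (0.68, limma adjusted p = 0.00116) and with the replicate number as a block (limma adjusted p = 0.0234). FANCG passed with the mean of all probe sets (-0.21, limma adjusted p = 0.0490), though it has only 1, and FANCC without a mean-variance trend (0.25, limma adjusted p = 0.0487).

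FANCI, the core complex's substrate, rose clearly. It read 254.9 and 259.5 with the mimic and 120.1 and 121 with miR-NC, with hardly any spread within a group, and rose by 1.09 ± 0.08 (log2, SE, limma adjusted p = 7.75e-07). Another FANCI probe set rose by 1.26 ± 0.08, and the last was at 0.20 ± 0.10 and did not pass.

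Of the 5 genes that read and signal the damage, the kinases CHEK1, ATR and ATM rose, the cofactor ATRIP fell and CHEK2 did not pass. CHEK1, which ATR activates to hold the cell cycle while forks are stalled, read 364 and 352 with the mimic and 165 and 168 with miR-NC. It rose by 1.11 ± 0.07 (log2, SE, limma adjusted p = 4.09e-07), and all 5 other probe sets rose, by 0.67 to 1.33. ATR itself, the kinase of single-stranded DNA, read 224 and 231 against 112 and 118, a rise of 0.99 ± 0.08 (limma adjusted p = 2.27e-06). Its obligate partner ATRIP, which recruits it to coated single strands, read 33.2 and 21.8 against 48.4 and 47.9. It fell by 0.84 ± 0.18 (limma adjusted p = 0.00205), with the mimic arrays below both controls but unlike each other. In RefSeq the exonuclease gene TREX1 lies within the span of ATRIP, and ATRIP has 1 probe set here, so its signal may include transcripts of both.

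ATM, the kinase of double-strand breaks, read 39.4 and 39.9 against 24.0 and 32.1, a rise of 0.51 ± 0.15 (limma adjusted p = 0.0140). ATM did not pass with either mimic array left out (0.52 without mimic replicate 1 and 0.50 without mimic replicate 2), or without control replicate 1 (0.30). Nor did it pass without cross-hybridizing probe sets (0.25) or with the mean of its probe sets (0.11). CHEK2, the kinase downstream of ATM, had overlapping groups and was at -0.06 ± 0.09 (limma adjusted p = 0.637).

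**Figure D3:**
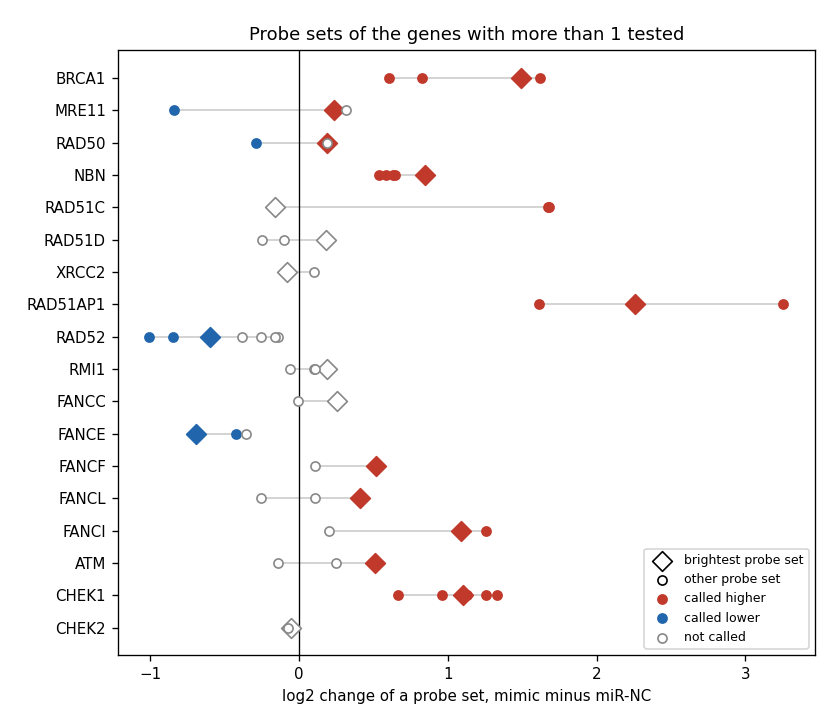
The log2 change (mimic minus miR-NC) of every tested probe set of the genes with more than 1 tested; diamonds are the brightest probe set of a gene, circles the others, and filled symbols passed at a limma adjusted p under 0.05 over all probe sets. RAD51C has its diamond at -0.16 and both circles near 1.68, while the symbols of CHEK1 and NBN all lie above 0.5.

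Several genes were measured more than once on the same arrays, which repeats the probe and not the sample. The 34 genes have 98 probe sets, 76 of them bright enough to be tested. Of the 76, 36 rose and 9 fell, where over all tested probe sets 27.2% were higher and 24.2% lower. The genes that had passed have 34 other tested probe sets, of which 19 were called the same way, 13 were not called and 2 were called the opposite way. Those 2 belong to MRE11 and RAD50. Some of the 19, as for RAD51AP1, FANCF and RAD52, were bright enough only through the group where they are high. The agreement of such probe sets is no support for the calls.

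Other genes of the pathway were looked up from a list that holds no gene of the group. Of the 60 tested, 28 rose (46.7%) and 17 fell (28.3%), with a median log2 change of 0.18. Over all genes tested 28.1% were higher and 26.9% lower, so the share that fell was near that of all genes. The smaller lists below are to be read against the same shares of all genes. Among 12 cofactors of strand exchange 5 rose and 4 fell: MND1, which supports strand exchange, rose by 1.60 ± 0.09 and FIGNL1, which dissolves recombination filaments, by 1.51 ± 0.10, while SWSAP1, which forms a complex with ZSWIM7, fell by 1.14 ± 0.10. Of 15 genes tied to the Fanconi pathway 8 rose and 4 fell. USP1, which removes ubiquitin from FANCI and FANCD2, rose by 1.09 ± 0.05, and UBE2T, the conjugating enzyme that works with FANCL, rose by 0.84 ± 0.06. REV3L, the catalytic subunit of a polymerase that copies past lesions, rose by 0.85 ± 0.12. The 4 that fell, named after their values were seen, were the nuclease scaffold SLX4 (-0.73), the USP1 cofactor WDR48 (-0.72), the nuclease subunit ERCC1 (-0.58) and CENPX (-0.45), which binds FANCM.

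Genes of joint molecule processing included PARPBP, an inhibitor of recombination, at 1.01 ± 0.10 and the helicase RECQL5 at -0.60 ± 0.11, both past the threshold, in a list of 11 where 5 were called higher and 3 lower. The resolvase GEN1, counted among the 5, was bright enough to be tested only through the mimic arrays, its controls being at background, and no change is given for it. Of 11 genes around the BRCA1-A complex, which holds BRCA1 at ubiquitin marks, 4 rose and 4 fell. There BABAM2 fell by 0.71 ± 0.06 and BABAM1 by 0.46 ± 0.07, and ABRAXAS1 rose by 0.44 ± 0.08. RPA2, of the protein that coats single-stranded DNA, rose by 1.18 ± 0.08, with HUS1 of the checkpoint clamp at 0.84 ± 0.08 and the fork protein TIPIN at 0.55 ± 0.08. These belong to a list of 11 single strand coat and checkpoint genes, of which 6 rose and 2 fell. Named after their values were seen, the fallen ones were RAD9A of the same clamp (-0.24) and its loader RAD17 (-0.24), and the RPA subunits RPA1 (0.09) and RPA3 (0.03) did not pass.

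Classical end joining, which seals breaks without a template, was read for comparison. Of 11 genes 5 rose (45.5%) and 3 fell (27.3%), against 28.1% and 26.9% of all genes tested. None changed by 2-fold or more, and the median log2 change was 0.26. XRCC5, a subunit of the Ku end-binding protein, rose by 0.61 ± 0.07, and the polymerases POLL and POLM fell by 0.95 ± 0.11 and 0.59 ± 0.09. The medians were 0.37 for the 32 recombination and Fanconi genes, 0.18 for the other pathway genes and 0.26 for end joining. Whether these lists differ was not tested.

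**Figure D4:**
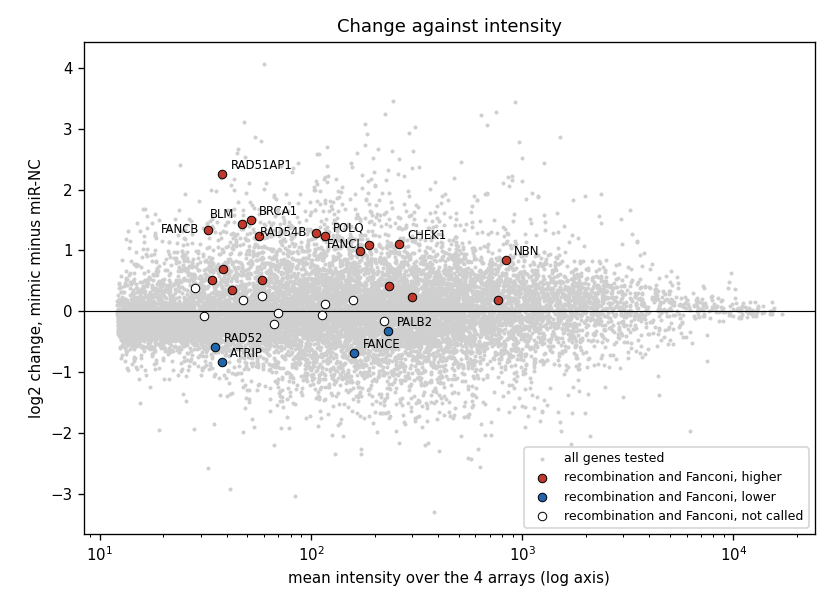
The log2 change of each tested gene (mimic minus miR-NC) against its mean intensity over the 4 arrays on a log axis; grey points are all 14123 genes tested, and the 32 recombination and Fanconi genes are outlined in black. RAD51AP1 stands highest of them, at a fitted value whose controls are at background, and ATRIP lowest at -0.84, and the genes that rose run from dim (FANCB) to bright (NBN).

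Promoters are shown for the 3 genes with the largest rises and the 1 with the largest fall among those with a single annotated start. ATRIP, which fell further than FANCE, and BRCA1, which rose further than BLM, have more than 1 start. Each line gives the 250 bases before the gene's start from RefSeq (GRCh38.p14): RAD51AP1 at chr12:4538640-4538889 on the plus strand, BLM at chr15:90717096-90717345 on the plus strand, FANCB at chrX:14873070-14873319 on the minus strand and FANCE at chr6:35452088-35452337 on the plus strand. Capitals mark 3 kinds of letters, each searched on both strands. E2F-type letters were TTCCCGC as one form, TTCGCGC as another, TTGCCGC as the next and TTGGCGC as the last. The other kinds were the box CCAAT and the cell cycle homology region (CHR), which is TTTGAA or else TTCGAA. No 2 kinds overlapped in these windows.
RAD51AP1: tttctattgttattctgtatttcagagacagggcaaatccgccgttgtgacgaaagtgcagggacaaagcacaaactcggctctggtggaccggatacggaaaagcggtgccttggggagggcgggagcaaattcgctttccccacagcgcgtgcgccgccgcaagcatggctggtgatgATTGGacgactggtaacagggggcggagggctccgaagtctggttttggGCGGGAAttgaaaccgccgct
BLM: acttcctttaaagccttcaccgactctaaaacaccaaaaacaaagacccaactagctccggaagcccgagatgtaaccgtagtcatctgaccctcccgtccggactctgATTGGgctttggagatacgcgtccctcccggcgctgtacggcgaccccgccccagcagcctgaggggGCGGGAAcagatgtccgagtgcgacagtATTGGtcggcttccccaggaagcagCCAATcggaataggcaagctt
FANCB: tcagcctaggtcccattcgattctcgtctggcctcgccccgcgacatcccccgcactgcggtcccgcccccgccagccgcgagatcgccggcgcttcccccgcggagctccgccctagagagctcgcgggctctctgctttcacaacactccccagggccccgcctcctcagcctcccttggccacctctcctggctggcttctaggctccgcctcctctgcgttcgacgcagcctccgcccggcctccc
FANCE: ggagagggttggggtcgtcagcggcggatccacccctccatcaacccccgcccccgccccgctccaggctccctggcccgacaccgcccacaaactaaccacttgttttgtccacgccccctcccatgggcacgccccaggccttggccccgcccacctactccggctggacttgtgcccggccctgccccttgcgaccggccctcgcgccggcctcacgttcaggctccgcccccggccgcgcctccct
RAD51AP1 holds CCAAT starting 70 bases and E2F-type letters starting 21 bases before its start. BLM holds CCAAT at 141, 46 and 21 bases and E2F-type letters at 74 bases, and FANCB and FANCE hold none of the letters in this stretch.

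Windows of 300 bases, which add the 50 after the start, were at hand for 28 of the 32 tested genes, and RAD54B, NBN, FANCI and RMI2 have none. E2F-type letters were in at least 1 window of 17 of the 28, or 60.7%, against 23.1% of the 11403 tested genes with a window and 13.0% of all 35116 windows. Median G and C content was 63.7% in the windows of the group and 64.0% in those of the tested genes. The letters were not limited to genes that rose: they were in 9 of 15 risen genes (BRCA1, BARD1, EXO1, RAD51AP1, RAD54L, BLM, FANCF, FANCL and POLQ), in 2 of 4 fallen ones (RAD52 and FANCE) and in 6 of 9 that did not pass. CCAAT was in 14 of the 28, against 42.1% of tested genes and 34.6% of all windows. CHR letters were in ATM, POLQ and FANCC, 3 of the 28, against 15.9% of tested genes and 16.4% of all windows. A gene with several windows has more chances of a match, so shares of all windows and of genes are not like for like. A match of letters is a description and not a bound site.

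**Figure D5:**
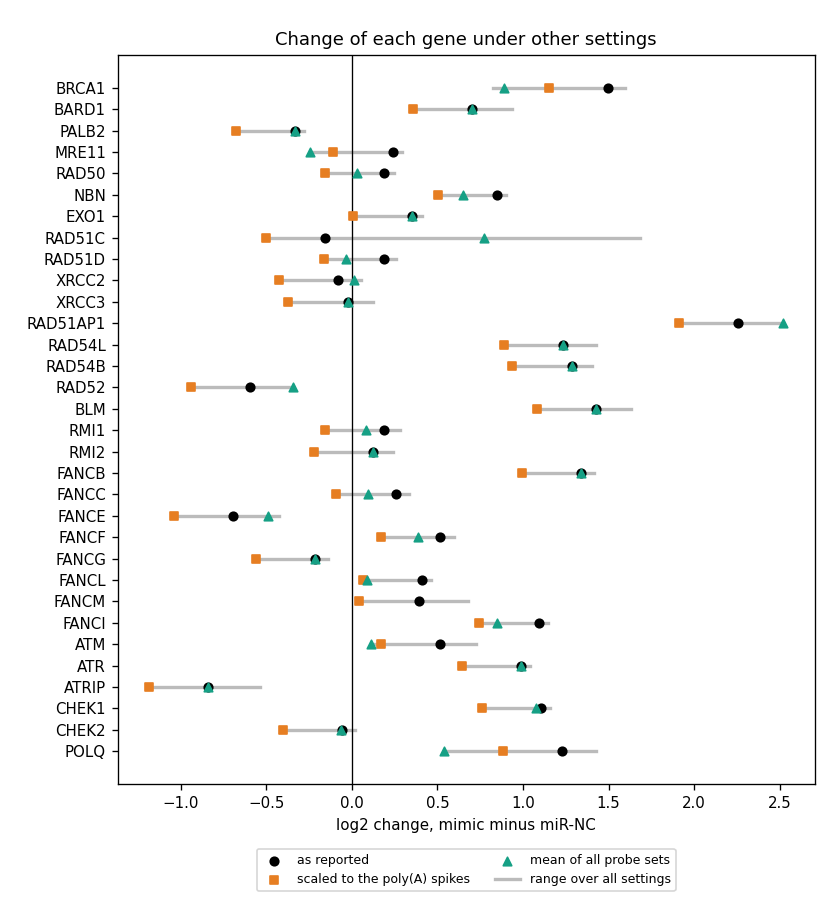
The log2 change of each tested gene as reported (black), after scaling to the poly(A) spikes (orange) and with the mean of all its probe sets (green); grey bars span all settings tried, including each array left out. The bars of BRCA1, RAD51AP1, BLM, CHEK1 and FANCI stay above 0 and that of FANCE below it, while the bar of RAD51C runs from -0.50 to 1.68.

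Of the 22 genes that passed, 12 were called the same way under all 19 other settings: BRCA1, PALB2, NBN, RAD54L, RAD54B, BLM, FANCE, FANCI, ATR, ATRIP, CHEK1 and POLQ. RAD51AP1 and FANCB kept their calls under every setting in which they could be fitted. The other 8 lost their call under at least 1 setting: BARD1, MRE11, RAD50, EXO1, RAD52, FANCF, FANCL and ATM. Of those that kept their calls, PALB2, RAD54L, RAD54B, BLM, FANCB, ATR and ATRIP have 1 probe set each. The settings that change the probe set could therefore not move the log2 change of these genes.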

How the data were processed

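The authors deposited an intensity for each probe set, made with RMA (version not given) per the submitters' processing notes. The values lie on a linear scale and were taken as already background-corrected and brought to 1 distribution between arrays, and their log2 was used. A shift of the whole transcriptome cannot be seen on such values. The platform annotation names genes, and 44988 of 49395 probe sets have 1 symbol. Each gene took the probe set with the highest mean log2, and the 14123 genes brighter than the 30th percentile of probe sets (12.0 in intensity) entered the test, mimic minus control, with limma 3.58.1 in R 4.3.3 (lmFit, eBayes with trend, 2 residual and 8.35 prior degrees of freedom, two-sided). P-values were adjusted by Benjamini-Hochberg over all genes, at 0.05, and separately over 31755 probe sets. The number of arrays limits the precision. Groups came from the sample titles. The test was checked on simulated data.

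Members, lists and the rule for named genes were chosen with earlier results of these data known. That rule gives array values for up to 4 called members of each role, and up to 3 called genes of each other list. KRT6A, KRT17 and TP63, in the marker lists, were not analysed here, and some items of the lists are not reported here. The 19 alternatives change the scaling, filter, probe set, spread, threshold, block or arrays.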

Additional observations from a re-analysis of the deposited data

How the results depend on the processing

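Set to the poly(A) spikes, the group had 11 genes higher and 9 lower and a median of 0.024, all genes 1613 and 8198, other pathway genes 10 and 28, and end joining 2 higher; MRE11 was at -0.11, RAD50 -0.16, GAPDH -0.20 and ACTB -0.0057. The median of the group was 0.42 with the hybridization spikes, 0.25 with genes above the 50th percentile, 0.12 when all probe sets of a gene were averaged and 0.30 without cross-hybridizing ones, against 0.37. With the mean of all probe sets MRE11 was at -0.25 and RAD51C at 0.77, and by mean intensity RAD51C at 1.68. Leaving out each array in turn gave 13 to 18 genes of the group higher and 3 to 4 lower, a median of 0.28 to 0.39, 2897 to 4087 of all genes higher and 2509 to 4041 lower, 21 to 28 other pathway genes higher and 12 to 15 lower, and 3 to 6 end joining genes higher and 2 to 3 lower, the fewest calls coming without mimic replicate 2. A lone array is there assumed to vary like the other group. With the replicate number as a block, 19 genes of the group were higher and 4 lower, and 4132 and 4120 over all genes. The arrays share only a number, which alone does not pair them, so the block was not used in the main fit. Deviations of same-numbered arrays correlated at 0.08. Choosing by mean intensity, and filtering on the no-target probe sets, were settings chosen after seeing the data. Background signal limits the dim genes: BRIP1 and DNA2 have no comparison and the brightest RAD51AP1 probe set only a bound.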
